A study of Mus musculus with 6 samples.

Results

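The nuclear-encoded genes of oxidative phosphorylation were followed in primary mouse microglia that were exposed to FTY720 with or without lipopolysaccharide (LPS). Members were all genes of the deposited count tables whose symbol starts with Nduf, Uqcr, Cox4, Cox5, Cox6, Cox7, Cox8 or Atp5, which gave 88 of 24411 genes. By symbol they fell into complex I (45 genes), complex III (8), complex IV (18) and complex V (17). The choice used names alone and no measured value. It took in 7 assembly factors named Ndufaf, the muscle, lung and testis isoforms of complex IV, and a few genes that work elsewhere than their symbol says, which are pointed out where they are described.

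Microglia are the macrophages that live in the brain, and they were cultured from 3-day-old ICR mice, with the brains of 12 mice pooled. In the FTY720 + LPS group (3 libraries), cells received FTY720 at 1 µM and LPS at 10 ng/ml for 4 h. The FTY720 group (3 libraries) received FTY720 at 1 µM for 4 h. FTY720 (fingolimod) is a drug that cells phosphorylate into a ligand of sphingosine-1-phosphate receptors, and LPS, from the outer membrane of Gram-negative bacteria, activates Toll-like receptor 4. Both groups carried FTY720, so every difference given here sets LPS against no LPS in its presence; cells without FTY720 were not analysed here. The labels call the replicates independent RNA samples and do not say whether they came from separate pools of mice or separate cultures, so p-values measure the spread between these RNA samples.

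Oxidative phosphorylation takes place in the inner mitochondrial membrane. Complexes I, III and IV pass electrons from NADH to oxygen and pump protons, and complex V uses the proton gradient to make ATP. Each of these complexes combines a few subunits encoded by mitochondrial DNA with many encoded in the nucleus; of the nuclear ones, the core subunits carry the redox centres or the catalytic sites and the accessory subunits surround them. In macrophages, LPS is known to shift energy metabolism towards glycolysis. The mitochondrially encoded subunits were not analysed here.

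Gene reads numbered 2431775 to 3454647 per library, and 28.8% to 59.0% of them were ribosomal RNA-like reads (Rn45s, Lars2 and Mir6236), with FTY720 replicate 3 at the low end. A gene with 0 reads could therefore still have had up to 0.706 to 1.502 CPM (reads scaled to a common library size with TMM factors), depending on the library; this is the worth of 3 reads and covers counting error only. Of 10 tested microglial markers 9 were called higher with LPS, with a summed level of 3586 to 4129 CPM in FTY720 + LPS libraries against 2216 to 2449 CPM in FTY720 libraries. Markers of other cells moved too: all 6 tested oligodendrocyte-lineage markers were lower (160 to 183 CPM summed over 8 genes in FTY720 + LPS libraries, against 298 to 324 CPM in FTY720 libraries), as were all 3 tested neuronal markers (97.6 to 109.7 CPM over 6 genes in FTY720 + LPS libraries, against 179.5 to 241 CPM in FTY720 libraries). Of 7 tested astrocyte markers 2 were higher and 1 lower (107 to 146 CPM over 8 genes in FTY720 + LPS libraries, against 94.8 to 114 CPM in FTY720 libraries). None of 5 tested fibroblast and mural markers was called (105 to 165 CPM over 6 genes in FTY720 + LPS libraries, against 57.2 to 141 CPM in FTY720 libraries). Of 6 monocyte and border macrophage markers the 2 tested, Mrc1 and F13a1, were higher (309 to 404.5 CPM in FTY720 + LPS libraries, against 190.0 to 212 CPM in FTY720 libraries), while Ly6c2 had 0 reads. The part of these shifts in the results below was not tested, and in bulk RNA fewer cells of a type and less RNA per cell cannot be told apart.

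Of the 88 members, 75 had enough reads to be tested and 13 did not. With LPS, 24 members were called higher and 4 lower by edgeR's quasi-likelihood test at a Benjamini-Hochberg adjusted p under 0.05, and 47 were not called. That is 32% higher and 5.33% lower, where 23.3% of all 10124 tested genes were called higher and 22.7% lower. The tested members had a median log2 fold change of 0.26, and all tested genes one of -0.04. Every FTY720 + LPS library lay above every FTY720 library for 31 members (41.3%, against 27.1% of all tested genes) and below for 4 members (5.33%, against 26.9%). The complexes differed in their counts: 5 higher and 4 lower of 40 tested in complex I, 3 and 0 of 8 in complex III, 10 and 0 of 11 in complex IV, and 6 and 0 of 16 in complex V. At an unadjusted p under 0.05, edgeR still found 0 members of complexes III, IV and V lower, and 5 of complex I; DESeq2 called 0 members lower. Median log2 fold changes were 0.17 in complex I, 0.26 in complex III, 0.53 in complex IV and 0.25 in complex V.

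**Figure D1:**
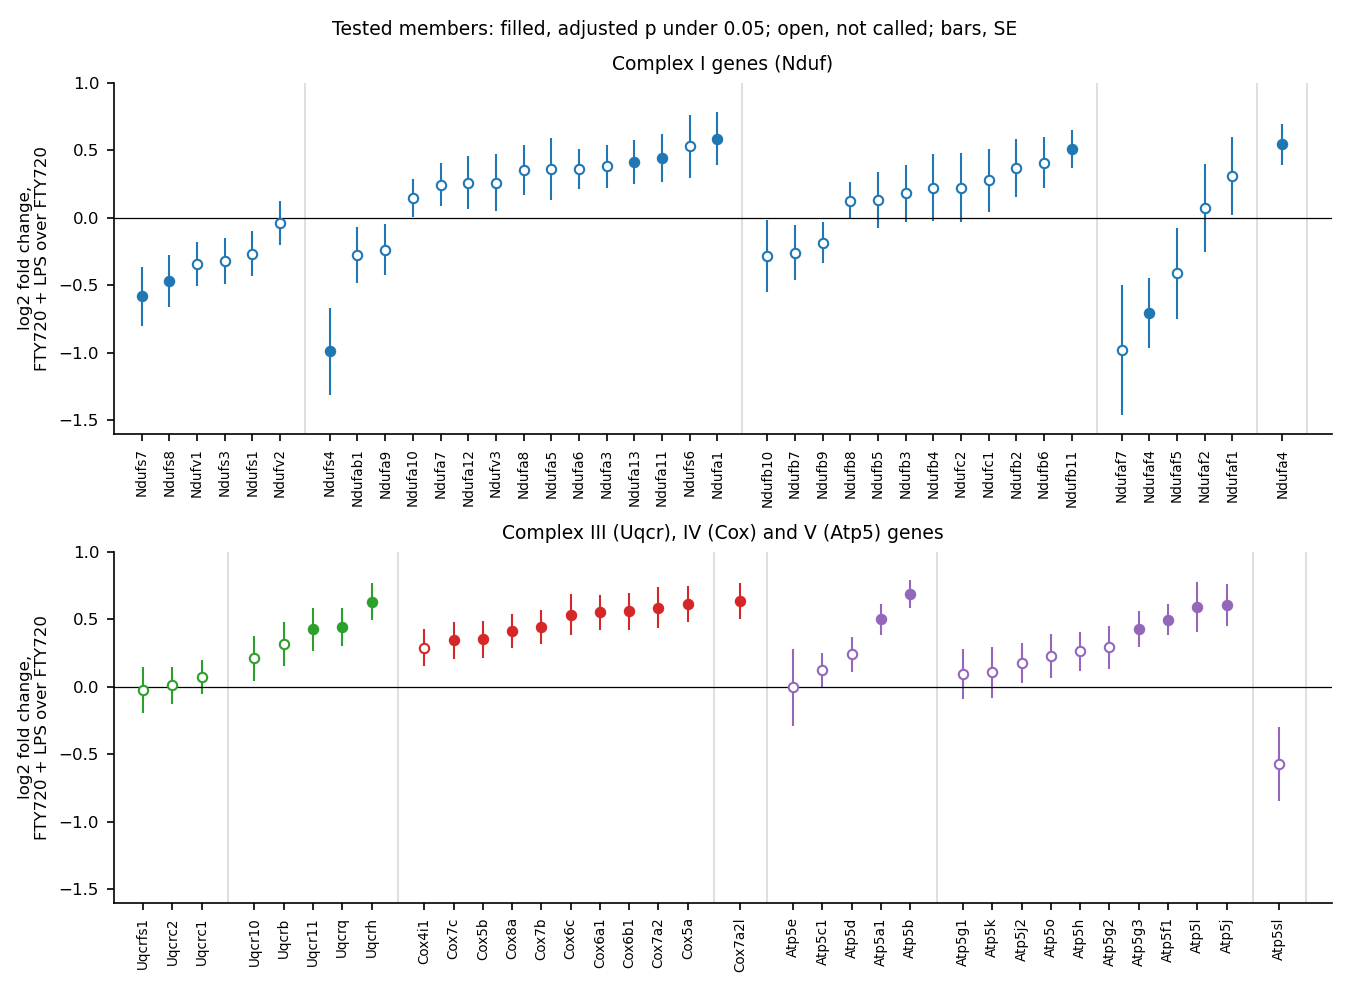
Log2 fold change (FTY720 + LPS minus FTY720) of 74 tested members with its standard error, grouped by complex and role; filled symbols are called at an adjusted p under 0.05 (edgeR). The 11 tested complex IV members all lie above 0 and the core subunits of complex I shown at the left of the upper panel all lie below it; scaling shifts every value by a common amount.

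These directions depend on how the libraries are scaled. The values above use TMM factors, which leave the median of all genes near 0. With total gene reads alone, rRNA-like reads included, the median of all tested genes was -0.35 and that of the members -0.07; with upper-quartile factors it was -0.17 over all genes. Of all calls 50.7% were higher with TMM factors, 38.8% with upper-quartile factors, 22.2% with total gene reads alone and 61.6% with DESeq2. Relative to the median of all genes, the members stood at 0.30 with TMM factors, at 0.30 with upper-quartile factors and at 0.28 with total gene reads alone. Scaling factors shift all genes by about a common amount, so these 3 values could hardly differ. The members stood at 0.22 with DESeq2 and at 0.20 with the trend on mean level removed. With the trend on transcript length and GC content removed, they stood at 0.07. The members together took 0.367% ± 0.0202 of gene reads in FTY720 + LPS libraries and 0.368% ± 0.130 in FTY720 libraries (SD, n = 3 each). With rRNA-like genes left out of the total, they took 0.618% ± 0.00505 in FTY720 + LPS libraries and 0.664% ± 0.0488 in FTY720 libraries. Changes between complexes within a library do not depend on scaling, and they are given next.

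The division of the members' reads among the complexes differed between the groups. Complex I held 26.0% ± 0.30 of all member reads in FTY720 + LPS libraries and 30.5% ± 0.21 in FTY720 libraries (SD, n = 3 each). Since a larger share of one complex makes the others smaller, this does not say that the level of complex I fell. With TMM factors its summed level was 1059 ± 25.6 CPM in FTY720 + LPS libraries and 979 ± 109 CPM in FTY720 libraries. The 7 core subunits of complex I made up 5.80%, 5.17% and 5.70% in the FTY720 + LPS libraries, against 7.96%, 8.29% and 8.61% in the FTY720 libraries. These core shares did not overlap between the groups, and neither did their 95% Wilson intervals, which reached up to 6.26% in FTY720 + LPS libraries and down to 7.42% in FTY720 libraries. Complex IV held 22.72%, 22.96% and 23.42% of member reads in FTY720 + LPS libraries, against 20.69%, 20.66% and 20.98% in FTY720 libraries. Complex V held 38.6% ± 0.349 in FTY720 + LPS libraries and 35.5% ± 1.02 in FTY720 libraries. Neither complex IV nor complex V shares overlapped between the groups. Complex III shares did overlap, at 12.4% ± 0.591 in FTY720 + LPS libraries and 13.2% ± 0.841 in FTY720 libraries. The separation of the complex V shares rested on 1 gene, Atp5b. It gave 1503, 1362 and 1136 of the 4142, 3657 and 3224 complex V reads in FTY720 + LPS libraries. In FTY720 libraries it gave 968, 1052 and 1626 of 3313, 3163 and 5291. With the Atp5b reads taken off, complex V shares overlapped between the groups too. Reads of the 10 commonly expressed complex IV subunits, divided by reads of the 7 core subunits of complex I, gave 3.43, 3.91 and 3.65 in FTY720 + LPS libraries, against 2.36, 2.20 and 2.17 in FTY720 libraries. Likewise the 5 subunits of the F1 head of complex V stood at 3.86, 4.26 and 3.76 reads per core complex I read in FTY720 + LPS libraries, against 2.42, 2.42 and 2.12 in FTY720 libraries. Within complex I the reads of accessory over core subunits came to 3.26 ± 0.211 in FTY720 + LPS libraries and 2.37 ± 0.132 in FTY720 libraries. Being sums over members, these shares and ratios are described without a test.

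**Figure D2:**
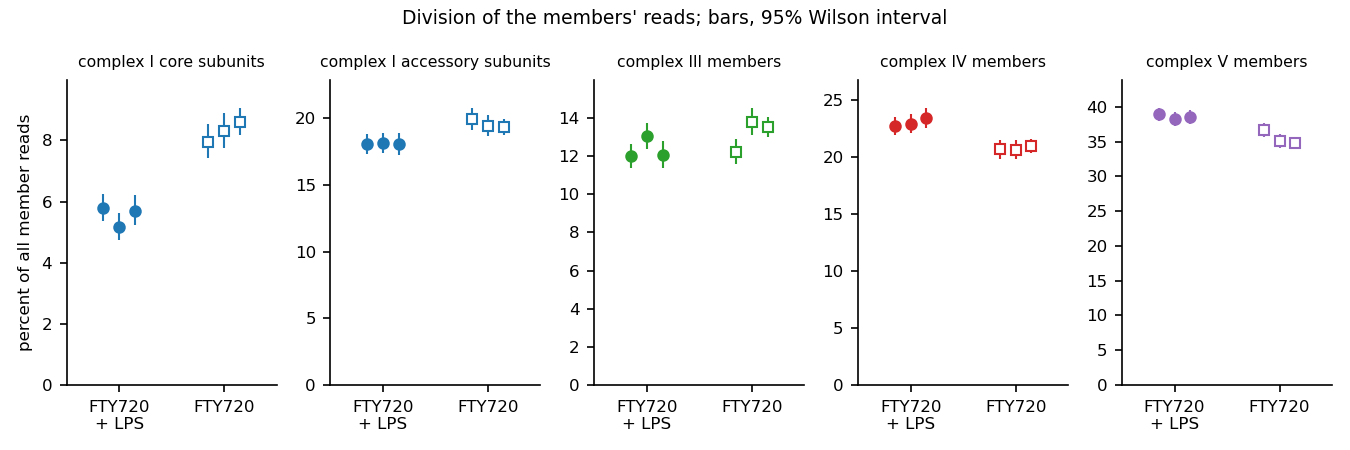
Share of all member reads (percent, axis from 0) held by the core and the accessory subunits of complex I and by complexes III, IV and V in each library, with 95% Wilson intervals. Core complex I shares are 5.17% to 5.80% in FTY720 + LPS libraries and 7.96% to 8.61% in FTY720 libraries, and complex III overlaps between the groups.

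In complex I, the NADH dehydrogenase, 2 subunits of the redox core were lower with LPS and 4 accessory subunits were higher. The 7 nuclear core subunits bind NADH and flavin, carry the iron-sulfur clusters and form part of the ubiquinone site. All 7 had a negative log2 fold change, with a median of -0.32, and 2 of them (28.6%) were called lower, a share near the 22.7% of all tested genes. There were 0 such calls with DESeq2, where 6 of the 7 were negative, or with the trend on mean level removed. Ndufs7, which holds the iron-sulfur cluster next to the ubiquinone site (chromosome 10, 80249121 to 80256794, plus strand, GRCm38), had 12.7, 9.73 and 14.0 CPM in FTY720 + LPS libraries, against 15.7, 19.7 and 18.8 CPM in FTY720 libraries. Its groups did not overlap, and the log2 fold change was -0.58 ± 0.22 (SE, n = 3 per group; edgeR adjusted p = 0.0342). Ndufs8, another iron-sulfur subunit (chromosome 19, 3908863 to 3912774, minus strand), had 17.5, 22.0 and 22.5 CPM in FTY720 + LPS libraries, against 26.4, 24.0 and 34.1 CPM in FTY720 libraries. It was lower in every FTY720 + LPS library, at -0.47 ± 0.19 (edgeR adjusted p = 0.0484). Of 18 alternative settings, Ndufs8 lost its call in 10 and Ndufs7 in 6. Ndufv1, which binds NADH and flavin mononucleotide, had 31.7, 30.0 and 32.5 CPM in FTY720 + LPS libraries, against 33.0, 43.4 and 42.6 CPM in FTY720 libraries. Its groups did not overlap either, but at -0.34 ± 0.16 it was not called (edgeR adjusted p = 0.0856). The remaining core subunits overlapped between the groups and were not called; among them Ndufs1, the largest subunit of the matrix arm, stood at -0.26 ± 0.17 and Ndufv2, a partner of Ndufv1, at -0.04 ± 0.16. Summed over the core, the level was 209 to 239 CPM in FTY720 + LPS libraries and 239.9 to 309 CPM in FTY720 libraries. The core median was negative under all 18 alternative settings, and all 7 subunits were negative under 15 of them, while with DESeq2, without FTY720 + LPS replicate 2 and without FTY720 replicate 3 it was 6.

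Of 29 accessory subunits of complex I 27 were tested, with 4 called higher (14.8%) and 1 lower (3.70%). Both shares are below those of all tested genes (23.3% and 22.7%). The median log2 fold change was 0.26. Ndufa1, required for the assembly of complex I, had 23.5, 23.7 and 33.0 CPM in FTY720 + LPS libraries, against 17.7, 14.4 and 20.2 CPM in FTY720 libraries (log2 fold change 0.59 ± 0.20, edgeR adjusted p = 0.0198). Ndufb11, also of the membrane arm, had 51.5, 57.5 and 53.6 CPM in FTY720 + LPS libraries, against 37.7, 38.1 and 38.1 CPM in FTY720 libraries (0.51 ± 0.14, edgeR adjusted p = 0.00468). Both were separated between the groups, as were the 2 other called accessory subunits, Ndufa11 (0.44 ± 0.18, edgeR adjusted p = 0.0456) and Ndufa13 (0.41 ± 0.16, edgeR adjusted p = 0.0400, also known as GRIM-19). Of 18 alternative settings, Ndufa11 lost its call in 13, Ndufa13 in 11, Ndufa1 in 7 and Ndufb11 in 1. Of the 27 tested accessory subunits 21 had a positive log2 fold change and 6 a negative one. The 1 called lower was Ndufs4, an accessory subunit at the NADH-binding end whose loss causes a mitochondrial encephalopathy in mice. Ndufs4 had 4.10, 3.38 and 4.00 CPM in FTY720 + LPS libraries, against 7.34, 6.34 and 8.95 CPM in FTY720 libraries. With 27 reads in all FTY720 + LPS libraries and 79 in the FTY720 libraries it was a scarce transcript; its groups did not overlap, and the log2 fold change was -0.99 ± 0.32 (edgeR adjusted p = 0.0158).

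Assembly factors help build complex I but are not part of it. Of the 7 genes named Ndufaf, 5 were tested, none was called higher and 1 lower (20%), with a median of -0.41. The share lower is near the 22.7% of all tested genes. Ndufaf4 had 7.46, 10.6 and 9.01 CPM in FTY720 + LPS libraries, against 15.7, 10.3 and 17.4 CPM in FTY720 libraries (log2 fold change -0.71 ± 0.26, edgeR adjusted p = 0.0292). FTY720 replicate 2 lay within the range of the FTY720 + LPS libraries, which made Ndufaf4 the 1 called member whose groups overlapped. The 4 lower calls of complex I changed with the setting: with DESeq2 there was none, nor was there one without FTY720 + LPS replicate 1, while there was 1 without FTY720 + LPS replicate 2, and there were 2 without FTY720 + LPS replicate 3 or without FTY720 replicate 3. Atp5sl carries an ATP synthase symbol but is known as Dmac2, an assembly factor of complex I, and had 10.8, 9.31 and 7.01 CPM in FTY720 + LPS libraries, against 15.0, 8.35 and 17.0 CPM in FTY720 libraries (-0.57 ± 0.28, not called, edgeR adjusted p = 0.0964). Of 7 tested complex I assembly factors with other symbols, none was higher and 3 were lower, beside 23.3% and 22.7% of all tested genes. The 3 were Tmem186 (-1.48 ± 0.33), Lyrm2 (-1.03 ± 0.29) and Tmem126a (-0.75 ± 0.30). Each had all FTY720 + LPS libraries below all FTY720 libraries. Whether so few genes differ from the share of all genes was not tested.

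**Figure D3:**
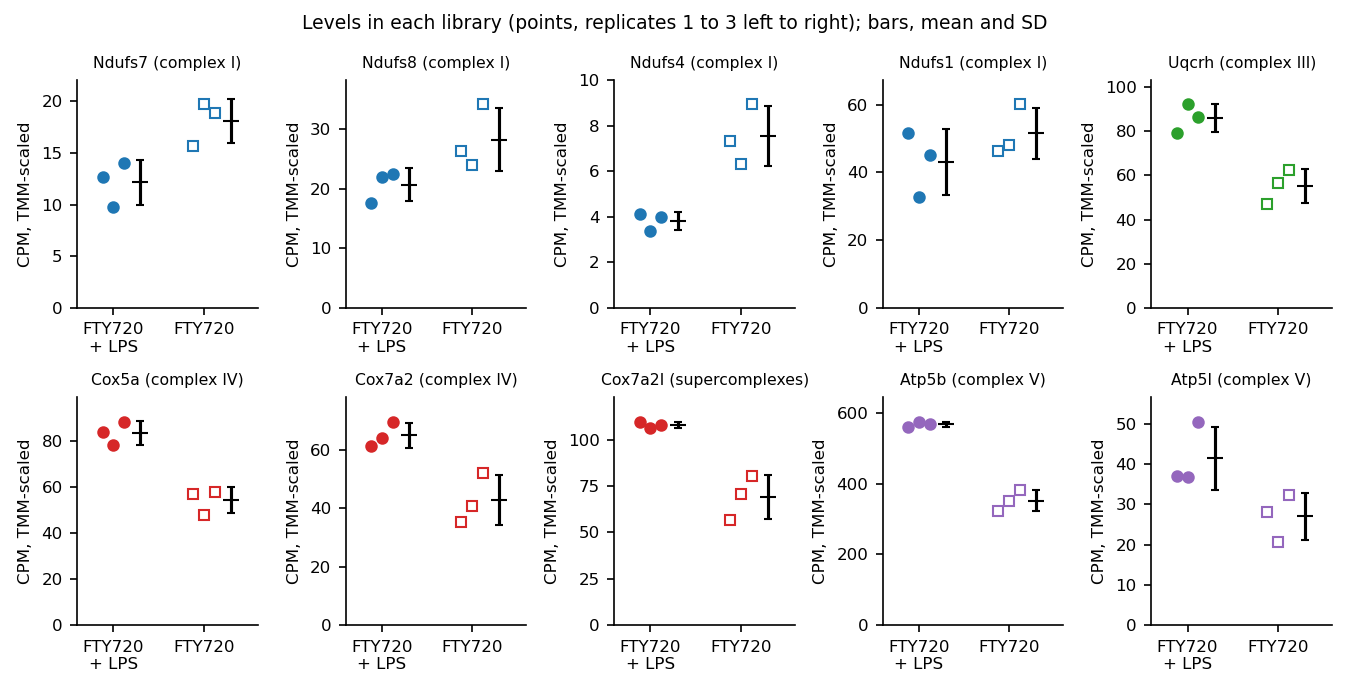
Level of 10 members in each library (CPM scaled with TMM factors, axis from 0), with FTY720 + LPS left of FTY720; points are replicates 1 to 3 and bars give the mean and SD. Ndufs7, Ndufs8 and Ndufs4 are lower in every FTY720 + LPS library, Ndufs1 overlaps, and the members of complexes III, IV and V shown are higher in every FTY720 + LPS library.

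The promoters of the 2 lower members Ndufs4 and Ndufs7 are shown because both hold the word of the factor YY1. Each covers 250 bases before and 50 bases after the gene start (RefSeq, GRCm38.p6), and capitals mark AAGATGGCG, searched on both strands. The Ndufs4 window is chr13:114388045-114388344, minus strand, and the Ndufs7 window is chr10:80249199-80249498, plus strand. The GENCODE M21 annotation places both gene starts further upstream, at 114388258 for Ndufs4 and at 80249121 for Ndufs7. The whole Ndufs7 window thus lies inside the GENCODE gene.
Ndufs4: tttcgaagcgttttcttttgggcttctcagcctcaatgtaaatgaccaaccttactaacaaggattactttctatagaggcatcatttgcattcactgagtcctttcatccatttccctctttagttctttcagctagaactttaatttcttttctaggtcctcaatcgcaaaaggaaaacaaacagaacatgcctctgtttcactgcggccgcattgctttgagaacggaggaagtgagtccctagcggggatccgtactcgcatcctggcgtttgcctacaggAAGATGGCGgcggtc
Ndufs7: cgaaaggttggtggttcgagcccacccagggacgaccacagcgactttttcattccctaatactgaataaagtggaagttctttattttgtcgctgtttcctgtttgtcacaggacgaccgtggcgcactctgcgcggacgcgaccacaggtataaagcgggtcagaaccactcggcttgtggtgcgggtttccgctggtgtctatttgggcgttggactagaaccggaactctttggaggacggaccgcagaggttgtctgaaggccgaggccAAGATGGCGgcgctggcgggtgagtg
Counted from the RefSeq start, the word lies downstream, at bases 36 to 44 for Ndufs4 and at bases 25 to 33 for Ndufs7. It contains ATG, so that it can match a start codon as well as a factor's site. A promoter was matched for 73 of the 88 members, and 7 of these (9.59%) held the YY1 word, against 1.495% of all 27025 promoters of the same length. These 27025 were not limited to the genes tested here. For 57 of the 73 the first 30 bases after the start were found in the gene's own GENCODE transcripts. It was present in 2 of the 4 members called lower, in 0 of the 21 members called higher and in 5 of the 41 members not called, counting those with a promoter. A match does not say whether YY1 binds there. The pair was picked after the calls were known.

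In complex III, the cytochrome bc1 complex, 3 of the 5 accessory subunits were higher with LPS while the differences of the core subunits were smaller than their errors. Of the 8 tested members of the complex 37.5% were called higher, against 23.3% of all tested genes. Uqcrh, the hinge protein beside cytochrome c1 (chromosome 4, 116066965 to 116075071, minus strand), had 79.4, 92.2 and 86.6 CPM in FTY720 + LPS libraries, against 47.1, 56.4 and 62.4 CPM in FTY720 libraries. The groups were well apart, and its log2 fold change of 0.63 ± 0.14 was the largest of the complex (edgeR adjusted p = 0.000659). Uqcrq, a ubiquinone-binding accessory subunit, had 64.5, 75.3 and 65.1 CPM in FTY720 + LPS libraries, against 42.4, 55.8 and 52.0 CPM in FTY720 libraries (0.45 ± 0.14, edgeR adjusted p = 0.0129). Uqcr11 followed at 0.43 ± 0.16 (edgeR adjusted p = 0.0330), and neither Uqcrq nor Uqcr11 overlapped between the groups. The accessory subunits Uqcrb (0.32 ± 0.16) and Uqcr10 (0.21 ± 0.17) overlapped and were not called. Uqcrc1, a core protein and the member of the complex with the highest CPM (not per length, where Uqcrh was first), had 85.0, 97.3 and 84.1 CPM in FTY720 + LPS libraries, against 73.1, 91.1 and 88.8 CPM in FTY720 libraries. Its log2 fold change was 0.07 ± 0.13, that of the other core protein Uqcrc2 0.01 ± 0.14, and that of the Rieske iron-sulfur protein Uqcrfs1 -0.02 ± 0.17. All 3 overlapped between the groups, and changes of about the size of these errors would not have been detectable at this depth.

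In complex IV, cytochrome c oxidase, the nuclear subunits were higher almost without exception. These subunits surround the catalytic core, which is made from mitochondrial DNA, and tune or stabilize the enzyme. Of the 10 commonly expressed subunits 9 were called higher (90%, against 23.3% of all tested genes). All 9 had every FTY720 + LPS library above every FTY720 library (90%, against 27.1% of all tested genes). Cox5a (chromosome 9, 57521274 to 57532426, plus strand) had 84.3, 78.3 and 88.6 CPM in FTY720 + LPS libraries, against 57.1, 48.1 and 58.2 CPM in FTY720 libraries (log2 fold change 0.62 ± 0.13, edgeR adjusted p = 0.000591). Cox7a2 had 61.2, 63.9 and 69.6 CPM in FTY720 + LPS libraries, against 35.4, 40.7 and 52.0 CPM in FTY720 libraries (0.59 ± 0.15, edgeR adjusted p = 0.00299). Next came Cox6b1 (0.56 ± 0.14), Cox6a1 (0.55 ± 0.13), Cox6c (0.53 ± 0.15), Cox7b (0.44 ± 0.12) and Cox8a (0.41 ± 0.12). Cox5b (0.35 ± 0.14, edgeR adjusted p = 0.0409) and Cox7c (0.35 ± 0.14, edgeR adjusted p = 0.0421) were the smallest called changes. Of 18 alternatives, Cox5b lost its call in 14, and Cox7c lost it in 13 and turned sign in 2 with the length and GC trend removed. Cox4i1, the subunit that binds ATP as a regulator, had 64.2, 79.5 and 77.6 CPM in FTY720 + LPS libraries, against 60.4, 53.1 and 66.2 CPM in FTY720 libraries. Its lowest FTY720 + LPS library lay below the highest FTY720 library, and at 0.29 ± 0.14 it was not called (edgeR adjusted p = 0.0875). The median of the complex was positive under every setting tried, relative to 0 as well as to the median of all genes.

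Cox7a2l and Ndufa4, both members, were higher as well. Cox7a2l, which joins complexes III and IV into supercomplexes (chromosome 17, 83501918 to 83517330, minus strand), had 109.7, 106 and 108 CPM in FTY720 + LPS libraries, against 56.4, 70.4 and 80.3 CPM in FTY720 libraries (log2 fold change 0.64 ± 0.13, edgeR adjusted p = 0.000487). It was the largest change of the complex, and its FTY720 + LPS libraries were nearly equal. Ndufa4, once assigned to complex I and later found to be a subunit of complex IV, had 57.4, 58.4 and 57.6 CPM in FTY720 + LPS libraries, against 34.7, 35.4 and 47.6 CPM in FTY720 libraries (0.55 ± 0.15, edgeR adjusted p = 0.00497). Cycs, the cytochrome c that feeds electrons to complex IV, lies outside the member list and had 50.7, 59.2 and 49.6 CPM in FTY720 + LPS libraries, against 22.4, 25.04 and 24.0 CPM in FTY720 libraries (1.16 ± 0.15, edgeR adjusted p = 1.84e-06). Among 27 tested assembly factors of complexes III and IV, by contrast, 3 were higher and 4 lower, with a median of 0.02. Both shares are below those of all tested genes (23.3% and 22.7%). The largest changes were those of Uqcc3 (-1.20 ± 0.33) and Cox18 (1.00 ± 0.37).

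The tissue-restricted isoforms of complex IV were barely read in these cells. Over all 6 libraries Cox7b2, Cox8b and Cox8c had 0 reads, as had Ndufa4l2, a hypoxia-induced relative of Ndufa4. Cox4i2, the hypoxia and lung isoform, had 1 read in FTY720 + LPS libraries and 0 in FTY720 libraries. The muscle isoforms Cox6a2 and Cox7a1 had 2 and 8 reads in FTY720 + LPS libraries, against 2 and 6 reads in FTY720 libraries, and the testis isoform Cox6b2 had 9 reads in FTY720 + LPS libraries and 6 in FTY720 libraries. None of these passed the filter on low counts. The common isoform took at least 97.2% of the family's reads in every library for Cox4i, Cox6a and Cox6b, and all of them for Cox7b and Cox8, so the isoform in use was the same in both groups. A further 5 members without a test were Ndufs5, with 0 reads, and Ndufa2, Ndufaf3, Ndufaf6 and Atp5s, each with at most 64 reads in all. Ndufs5 is an accessory subunit of complex I and not a tissue-restricted isoform. Whether its 0 reads mean that its RNA was absent or that its reads were not counted was not tested.

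The promoters of Cox6a1 and Cox8a are shown as examples from complex IV that hold words of the nuclear respiratory factors NRF1 and GABP, known regulators of respiratory chain genes. Capitals mark the NRF1 word, which is GCGC, any 2 bases and GCGC, and the word CCGGAAG or its reverse CTTCCGG of GABP (also called NRF2), with both strands searched and no overlap between the motifs found. The Cox6a1 window is chr5:115348909-115349208, minus strand, and the Cox8a window is chr19:7217567-7217866, minus strand (RefSeq, GRCm38.p6).
Cox6a1: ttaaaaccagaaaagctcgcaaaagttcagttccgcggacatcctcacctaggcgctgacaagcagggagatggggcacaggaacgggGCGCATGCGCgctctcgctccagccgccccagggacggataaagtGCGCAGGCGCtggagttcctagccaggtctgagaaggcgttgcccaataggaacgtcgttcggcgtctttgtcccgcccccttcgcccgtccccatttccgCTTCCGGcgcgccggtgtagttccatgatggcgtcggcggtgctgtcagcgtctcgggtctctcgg
Cox8a: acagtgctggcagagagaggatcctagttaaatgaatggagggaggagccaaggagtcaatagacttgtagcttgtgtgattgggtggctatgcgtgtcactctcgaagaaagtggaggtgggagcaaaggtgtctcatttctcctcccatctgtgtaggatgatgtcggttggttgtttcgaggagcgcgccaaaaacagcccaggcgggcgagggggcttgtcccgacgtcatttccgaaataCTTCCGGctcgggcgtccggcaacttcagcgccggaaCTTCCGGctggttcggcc
Cox6a1 held 2 NRF1 words, beginning at bases -162 and -117 from the start, and 1 GABP word beginning at base -16. Cox8a held 2 GABP words, one across the start (bases -5 to 2) and one at bases 33 to 39. Among the 73 members with a promoter, 24.7% held the NRF1 word, against 6.43% of all 27025 promoters, and 19.2% held the GABP word, against 9.12%. By call, the NRF1 word was in 3 of 21 higher, 1 of 4 lower and 13 of 41 uncalled members, and the GABP word in 6 of 21, 1 of 4 and 7 of 41. The NF-kB word, which is GGG, any 2 bases and TTTCC, was in 0 of the 73 and in 1.62% of all promoters. With so rare a word, 0 of 73 says little. All these shares are set beside promoters that were not limited to the genes tested here. A match is a run of letters, not a shown site.

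In complex V, the ATP synthase, 2 of the 5 subunits of the catalytic head and 4 of the 10 stalk and membrane subunits were higher with LPS. That is 37.5% of the tested members of the complex, against 23.3% of all tested genes. Atp5b, the catalytic beta subunit (chromosome 10, 128083273 to 128090391, plus strand), was the most abundant member by level per transcript length (297 CPM per kb in FTY720 + LPS libraries and 184 CPM per kb in FTY720 libraries). It had 561, 576 and 569 CPM in FTY720 + LPS libraries, against 323, 351 and 383 CPM in FTY720 libraries, far apart compared with the spread. Its log2 fold change of 0.69 ± 0.10, the largest of all 75 tested members, had an edgeR adjusted p of 9.57e-06. Atp5a1, the alpha subunit that alternates with beta in the head, had 155, 140 and 144 CPM in FTY720 + LPS libraries, against 103, 103 and 105 CPM in FTY720 libraries (0.50 ± 0.11, edgeR adjusted p = 0.000969). The other subunits of the head did not pass the test, at 0.24 ± 0.13 (Atp5d), 0.12 ± 0.12 (Atp5c1) and -0.00 ± 0.28 (Atp5e).

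Among 10 stalk and membrane subunits of complex V 4 were called higher and none lower. Atp5j, the coupling factor of the stalk, had 70.9, 66.4 and 65.6 CPM in FTY720 + LPS libraries, against 39.7, 36.7 and 55.6 CPM in FTY720 libraries (log2 fold change 0.61 ± 0.15, edgeR adjusted p = 0.00263). Atp5l, a membrane subunit that helps the enzyme pair into dimers, had 36.9, 36.8 and 50.6 CPM in FTY720 + LPS libraries, against 28.0, 20.7 and 32.3 CPM in FTY720 libraries (0.59 ± 0.18, edgeR adjusted p = 0.0108). Atp5f1, the peripheral stalk subunit b, had 173, 187 and 188 CPM in FTY720 + LPS libraries, against 132, 114 and 141 CPM in FTY720 libraries (0.50 ± 0.12, edgeR adjusted p = 0.00123). All 3 were separated between the groups. The genes Atp5g1, Atp5g2 and Atp5g3 encode the same mature c subunit of the rotor. Of these, Atp5g3 was higher (0.43 ± 0.13, edgeR adjusted p = 0.0122), and Atp5g2 (0.29 ± 0.16) and Atp5g1 (0.10 ± 0.19) were not called. Atp5g3 supplied 67.4%, 60.9% and 66.6% of the reads of the trio in FTY720 + LPS libraries, against 61.1%, 59.0% and 64.3% in FTY720 libraries, which overlapped. Of 6 tested assembly and inhibitor genes of complex V, Usmg5 was higher (0.59 ± 0.18) and Atpaf1, an assembly factor of the head, lower (-1.11 ± 0.37).

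Other genes around the respiratory chain were called in both directions. So were genes over all, with 23.3% of tested genes called higher and 22.7% lower, and the lists below are small. Complex II, succinate dehydrogenase, is encoded in the nucleus alone; of 9 tested genes on a list of complex II, electron carriers and Cyc1, Cycs was higher and 2 were lower, with a median of 0.04. Cyc1 encodes cytochrome c1, a redox subunit of complex III that the choice by symbol missed, and was not called (0.01 ± 0.14). Sdhb, the iron-sulfur subunit, had 43.3, 45.7 and 50.6 CPM in FTY720 + LPS libraries, against 60.4, 65.1 and 63.3 CPM in FTY720 libraries (log2 fold change -0.44 ± 0.14, edgeR adjusted p = 0.0108). Sdha, the flavoprotein, was lower by a like amount (-0.41 ± 0.12, edgeR adjusted p = 0.0102), and both were separated between the groups. Of 15 tested regulators of these genes 5 were higher and 3 lower, led by Polg2, the accessory subunit of the mitochondrial DNA polymerase (2.09 ± 0.34), and Gabpb1, a beta subunit of GABP (1.35 ± 0.16). The other beta subunit, Gabpb2, was lower (-1.13 ± 0.20), and Gabpa, the DNA-binding subunit, stood at -0.00 ± 0.16 and was not called. Of 11 tested genes on a list for coenzyme Q 2 were higher, Pdss1 (1.58 ± 0.47) and Coq10b (1.49 ± 0.16), and 1 was lower. Pdss1 had only 80 sense reads over all libraries, fewer than its 95 antisense reads. Of 10 inner membrane carriers and organizers 2 were higher, the uncoupling protein Ucp2 (0.63 ± 0.13) and the ADP/ATP carrier Slc25a5 (0.46 ± 0.12).

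The members share a feature that the choice by symbol did not use: their transcripts are short and abundant. Their median transcript length was 865 bases, against 3128 over all tested genes, and their median log2 CPM was 5.27, against 4.38. Across the 75 tested members the log2 fold change fell with length (Spearman rho -0.40, Pearson r -0.40 with log2 length) and rose with mean level (0.51 and 0.57), as descriptions over genes that share libraries. Complex IV had the shortest transcripts, with a median of 645 bases, and core complex I the longest of the complex I subunit groups, with 1623 bases. Genes outside the members behaved alike: of 121 non-members under 1000 bases whose level lay in the members' interquartile range, 43.8% were called higher and 6.61% lower, and the median log2 fold change was 0.33. The 2935 non-members of at least 1000 bases at those levels had 23.5% higher and 22.9% lower, with a median of -0.01. Beside that 43.8% of short genes, 32% of the members, 37.5% each of complexes III and V and 90.9% of complex IV were called higher. The short genes were taken at log2 CPM of 4.36 to 5.85. Complex IV had a median of 6.07, above that range, so for it they are not genes of like level. The differences were not tested.

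**Figure D4:**
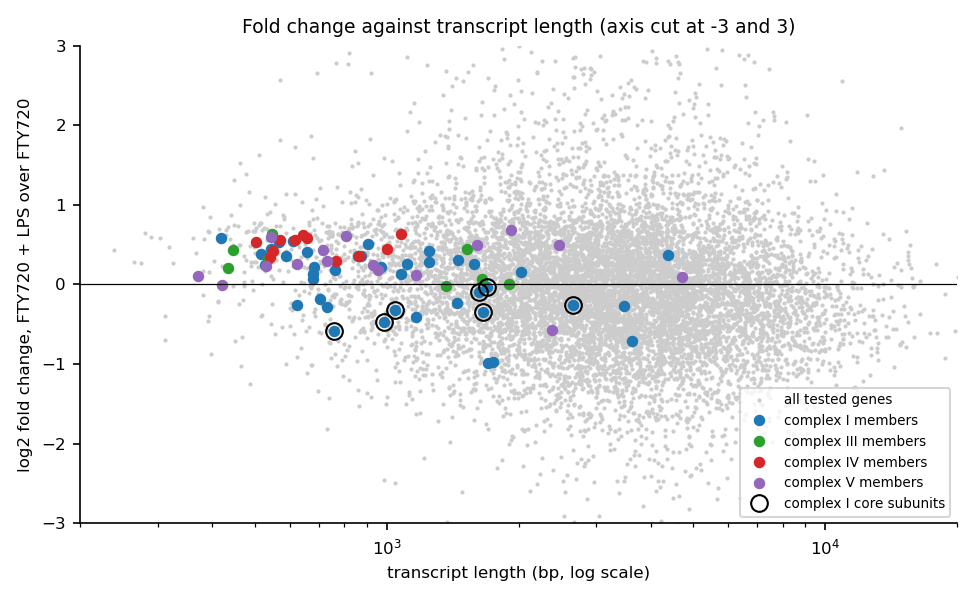
Log2 fold change (FTY720 + LPS minus FTY720) against transcript length in bases (log axis) for all tested genes (grey; the vertical axis leaves out the most extreme genes) and the tested members, coloured by complex, with core complex I subunits ringed. Members of complex IV crowd at short lengths with positive values, and the core subunits of complex I, some of them as short, are all below 0.

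When the trend of each library with transcript length and GC content was removed, 12 members were called higher and 8 lower, and their median was 0.08. Complex IV then had 4 higher calls of 11, namely Cox7a2l (0.44 ± 0.11), Cox6a1 (0.39 ± 0.12), Cox7a2 (0.32 ± 0.13) and Cox5a (0.29 ± 0.12), with a median of 0.23. Atp5b stayed at 0.65 ± 0.09 and Atp5a1 at 0.50 ± 0.10. The core of complex I then had 4 lower calls of 7, with a median of -0.34, where Ndufs7 stood at -0.64 ± 0.21 and Ndufs4 outside the core at -1.22 ± 0.32. When the trend with mean level was removed instead, Atp5b was at -0.04 ± 0.08, complex IV had 5 higher calls and a median of 0.37, and the core median was -0.36 with no call. The gap between the medians of common complex IV subunits and of the complex I core was 0.81 as reported and 0.55 to 0.88 over all alternatives.

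**Figure D5:**
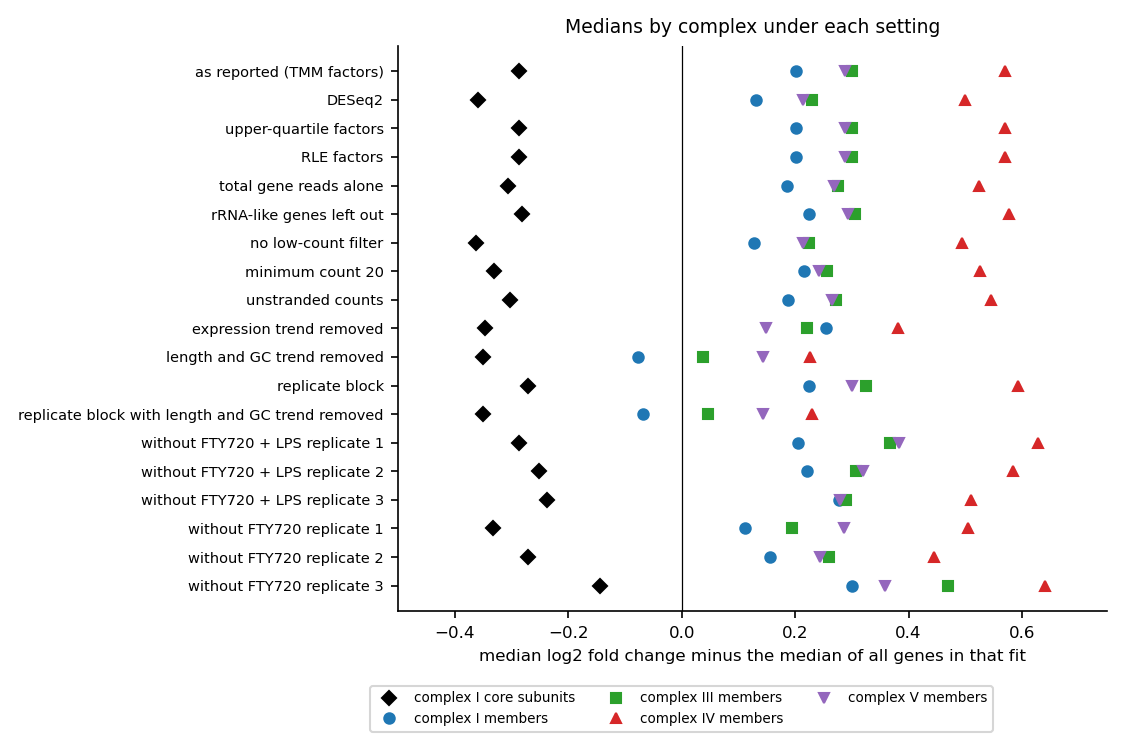
Median log2 fold change of the complex I core and of the members of each complex, minus the median of all genes, under each setting (rows, as reported at the top). The core lies below 0 and complex IV above 0 in every row, and complex I as a whole crosses 0 where the length and GC trend is removed.

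Counts of some members could be incomplete because only uniquely mapped reads are counted in such tables. At least 20% of the 50-base windows of the transcript occurred in another gene's transcript for 18 members, 7 of them called. Among the called members the share was highest for Atp5l (84.9%, shared most with a processed pseudogene), Cox7c (53.0%), Atp5f1 (38.7%) and Cox5a (32.0%). For the untested Ndufs5, which had 0 reads, the share was 31.1%, with a processed pseudogene. In GENCODE M21, Atp5o has 2 overlapping entries on the same strand, one of which runs on into Donson, so its counts depend on which of them the counting used. Antisense reads came to 701 over all members, against 61857 sense reads.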

How the data were processed

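RNA was measured in 6 strand-specific, rRNA-depleted RNA-seq libraries, 3 per group. The authors deposited raw read counts per gene symbol in the layout of STAR's gene counts, which holds uniquely mapped reads only. Tools named in the submitters' processing notes are STAR 2.5.1, Trimmomatic 0.33, CASAVA 1.8.2 and DESeq2, with the build mm10. Annotation and settings are not given in the sources used. Sense counts (98.4% to 98.9% of gene reads on either strand) were used. Rows that name no gene held 74.5% to 79.2% of all reads listed and stayed out of library sizes and tests.

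The test over all genes was edgeR's quasi-likelihood test (edgeR 4.0.16, R 4.3.3; TMM factors, filterByExpr with a minimum count of 10), with Benjamini-Hochberg adjustment over the 10124 genes kept and a threshold of 0.05. No test was run over the members as a set. Standard errors (SE) were taken from the test itself, as the size of the log2 fold change over the root of F. CPM values are scaled with the TMM factors. Shares carry 95% Wilson intervals, which cover counting error only, since the reads hold no molecular identifiers. The procedure was also run on simulated counts with known changes in a small part of the genes. These counts took the library factors as true and held no trend with transcript length. The run therefore does not bear on the effects of scaling or length.

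GENCODE M21, on the assembly of mm10 (GRCm38), gave transcript lengths, GC content and shared windows; it held all 88 members and 99.7% of tested genes, with 1 transcript chosen per gene; promoters came from RefSeq on GRCm38.p6. The alternatives were DESeq2 1.42.0, other scaling factors, other filters, unstranded counts, trends with level or with length and GC content removed (loess, span 0.3), a replicate block, and leaving out each library.

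The rule named, per complex, the 3 highest and 3 lowest called members and the most abundant one, all isoform families and called Ndufaf genes, and up to 2 genes per other list; further members were named after their values were seen. The values of 1 tested member are not reported here by name; it is in all counts. Members, lists and tests were chosen with earlier results of these data known.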

Additional observations from a re-analysis of the deposited data

How the results depend on the processing

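Depth limits these results, since the tested members had from 54 reads over all libraries upward, and scaling and length trends moved the counts. Against 24 members called higher, 4 lower and a median log2 fold change of 0.261, DESeq2 gave 0 lower (and 1274 genes lower over all, against 2297). Upper-quartile factors gave 15 higher, 8 lower and a median of 0.127. Total gene reads alone gave 0 higher with a median of -0.073, and 766 genes higher over all, against 2362. Removing the trend with level gave 13 higher and 0 lower, and removing the trend with length and GC content gave 12, 8 and a median of 0.082. Leaving out 1 library at a time gave 17 to 34 members higher, 0 to 4 lower and medians of 0.196 to 0.390, the last without FTY720 replicate 3. The members' share of gene reads was 0.618% in FTY720 + LPS libraries and 0.664% in FTY720 libraries once rRNA-like genes were left out. RLE factors, leaving out rRNA-like genes, both other filters and unstranded counts kept these counts within 1.5 times of the reported ones. Among called genes the sign turned for Atp5b (-0.042), Slc25a5 (-0.030) and Ucp2 (-0.009) with the level trend removed, and for Cox7c with the length and GC trend removed (-0.031, and -0.039 with the replicate block as well). For single genes, 60 calls were lost and 18 gained over 630 values with 1 library left out. Over 1249 values under other settings, 119 were lost and 19 gained. Causes were not tested.

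The replicate numbers share only a number: deviations of same-numbered libraries correlated at -0.02, -0.03 and -0.07 across genes. With the replicate block 22 members were higher and 2 lower (0 in the complex I core), and with the length and GC trend removed as well there were 12 higher, 7 lower and a median of 0.081.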
